A study of Rattus norvegicus with 48 samples.

Results

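The genes described here are 9 mediators of inflammation, listed by rat Ensembl ID: the cytokines Il6, Il1b and Tnf, the chemokines Ccl2, Ccl20, Cxcl1 and Cxcl10, and the inducible enzymes Nos2 and Ptgs2. Looked up by ID, 8 of the 9 were found among 32883 genes of the count table, and Nos2 was not analysed here. All 8 were among the 14775 genes that passed the filter on low counts. The rule uses no measured value. The count table holds IDs without symbols, so symbols are those of the list.

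The series holds 48 RNA sequencing libraries in 5 groups, each made from cultured rat liver cut into thin living slices (precision-cut liver slices). Slices from rats after bile duct ligation (BDL) were treated with SB525334 (n = 9), with Sora (n = 10), with Nint (n = 10) or with vehicle (n = 10), and slices from sham-operated rats were treated with vehicle (n = 9). SB525334 blocks ALK5, the kinase of the type I receptor for TGF-beta. Sora and Nint are the labels' short forms and are read here as the multikinase inhibitors sorafenib and nintedanib, which both block several receptor tyrosine kinases. A deposited sample sheet names the 9 SB525334 libraries by another compound code, so the identity of that group rests on the labels alone. The labels give no dose, no time in culture, no vehicle and no number of animals behind a group. All p-values therefore rest on how these libraries spread, and that spread can be technical. No sham library treated with a compound was analysed here, so responses to compounds were measured in ligated liver.

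Interleukin 1 beta and tumour necrosis factor are early cytokines made mainly by macrophages, and their receptors activate NF-kappaB and MAP kinases in many cell types. Those pathways switch on the genes for interleukin 6, for chemokines that draw in monocytes or neutrophils, and for the prostaglandin-forming enzyme cyclooxygenase 2, which Ptgs2 encodes. In the liver, Kupffer cells, infiltrating monocytes, endothelial cells, stellate cells, bile duct cells and hepatocytes can all make some of these mediators. Blocked bile flow injures bile ducts and hepatocytes and leads to inflammation and fibrosis, and slicing and culture are known to switch on inflammatory genes as well. In bulk slices, fewer cells of a type and less RNA per cell cannot be told apart.

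Total counts per library ranged from 12249470 to 29596987. Group medians were 14107981 for SB525334, 14632850 for Sora, 13629248 for Nint, 14392510 for ligated vehicle and 16766306 for sham. The SB525334 libraries and the sham libraries stood apart from the other groups in some of the deposited quality metrics, among them the 2 given next. Not all did so: intronic reads made up 25.98% to 33.11% with SB525334 and 31.4% to 34.86% with Sora. The share of mitochondrial reads had a median of 2.79% with SB525334, 1.71% with Sora, 1.495% with Nint, 1.42% with ligated vehicle and 2.29% in sham. The median share of reads not mapped uniquely was 15.18% with SB525334, 8.97% with Sora, 8.28% with Nint, 8.55% with ligated vehicle and 11.07% in sham. SB525334 libraries 1, 6 and 8 had 11.27%, 9.85% and 10.94% of reads not mapped uniquely, below the 13.42% to 20.85% of the 6 other SB525334 libraries. The ligated vehicle libraries spanned 8.1% to 8.89%, below all SB525334 libraries. The first principal component of the metrics served as a quality term in an alternative fit. Since metrics that enter that component set SB525334 and sham apart, that fit cannot tell quality from group in comparisons with either. Markers of liver cell types could not be matched to the IDs, so the cell makeup of the slices was not checked.

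Promoters of 7 of the 9 genes were in the RefSeq table for build GRCr8; Ccl2 and Nos2 had no entry. Each window covers 250 bases before to 50 after the gene's start. The 4 windows that held a match to the NF-kappaB consensus are shown, because that factor is a known regulator of these genes, 5′ to 3′ on the gene's strand with the matches in capitals. They are Il6 at chr4:5894526-5894825 on the minus strand, Ccl20 at chr9:91836909-91837208 on the plus strand, Cxcl1 at chr14:17479272-17479571 on the minus strand and Cxcl10 at chr14:15988816-15989115 on the plus strand.
Il6: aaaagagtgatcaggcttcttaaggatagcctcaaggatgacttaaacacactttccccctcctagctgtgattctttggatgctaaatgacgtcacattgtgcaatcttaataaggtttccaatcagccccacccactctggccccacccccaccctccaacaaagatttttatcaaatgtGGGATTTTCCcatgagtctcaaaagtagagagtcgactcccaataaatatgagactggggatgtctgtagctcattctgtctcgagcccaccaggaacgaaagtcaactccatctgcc
Ccl20: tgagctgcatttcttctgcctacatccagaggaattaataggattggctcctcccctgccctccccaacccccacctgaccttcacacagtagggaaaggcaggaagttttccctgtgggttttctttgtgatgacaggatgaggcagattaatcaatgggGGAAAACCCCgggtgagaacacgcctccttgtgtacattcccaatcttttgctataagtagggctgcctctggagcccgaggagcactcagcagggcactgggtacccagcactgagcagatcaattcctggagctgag
Cxcl1: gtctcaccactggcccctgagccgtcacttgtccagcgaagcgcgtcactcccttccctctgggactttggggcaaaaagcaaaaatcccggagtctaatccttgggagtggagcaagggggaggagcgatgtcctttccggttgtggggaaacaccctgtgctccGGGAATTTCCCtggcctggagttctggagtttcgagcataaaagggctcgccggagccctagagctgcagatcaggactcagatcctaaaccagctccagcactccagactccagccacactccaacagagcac
Cxcl10: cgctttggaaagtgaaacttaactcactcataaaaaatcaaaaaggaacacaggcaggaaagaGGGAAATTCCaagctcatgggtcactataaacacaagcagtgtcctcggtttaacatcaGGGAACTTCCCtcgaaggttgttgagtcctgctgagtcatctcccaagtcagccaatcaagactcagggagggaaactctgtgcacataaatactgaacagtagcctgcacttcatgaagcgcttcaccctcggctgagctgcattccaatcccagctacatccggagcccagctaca

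The kappaB consensus, searched on both strands, was found in 2515 of all 33469 promoter windows of the same length, or 7.5%. Il6 had 1 match, whose first base lies at -68 relative to the gene's start, and Ccl20 had 1 at -89. Cxcl1 had 2 matches that overlap, at -84 and -83. Cxcl10 had 3, at -187, -128 and -127, of which the last 2 overlap. The window of Cxcl10 also held the core of the interferon-stimulated response element, which 3.9% of all windows held, and an AP-1 match, TGANTCA, which 7.3% held. The windows of Il1b, Tnf and Ptgs2 held no kappaB match, which says only that those letters are not in these windows. A match is a description of the sequence, not a site of binding.

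Values below are CPM, counts scaled to a common library size with TMM factors, which set samples side by side for 1 gene and do not rank genes against each other, since they are not per length. Fold changes and adjusted p come from edgeR's quasi-likelihood test on all 48 libraries, with Benjamini-Hochberg adjustment over the 14775 genes; a gene was called at an adjusted p under 0.05. Under scaling by total counts alone the median log2 fold change of all genes was -0.377 for SB525334 against ligated vehicle and 0.305 for ligated vehicle against sham, where it is 0.036 and -0.045 under TMM, so changes are given relative to the TMM-scaled median.

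**Figure D1:**
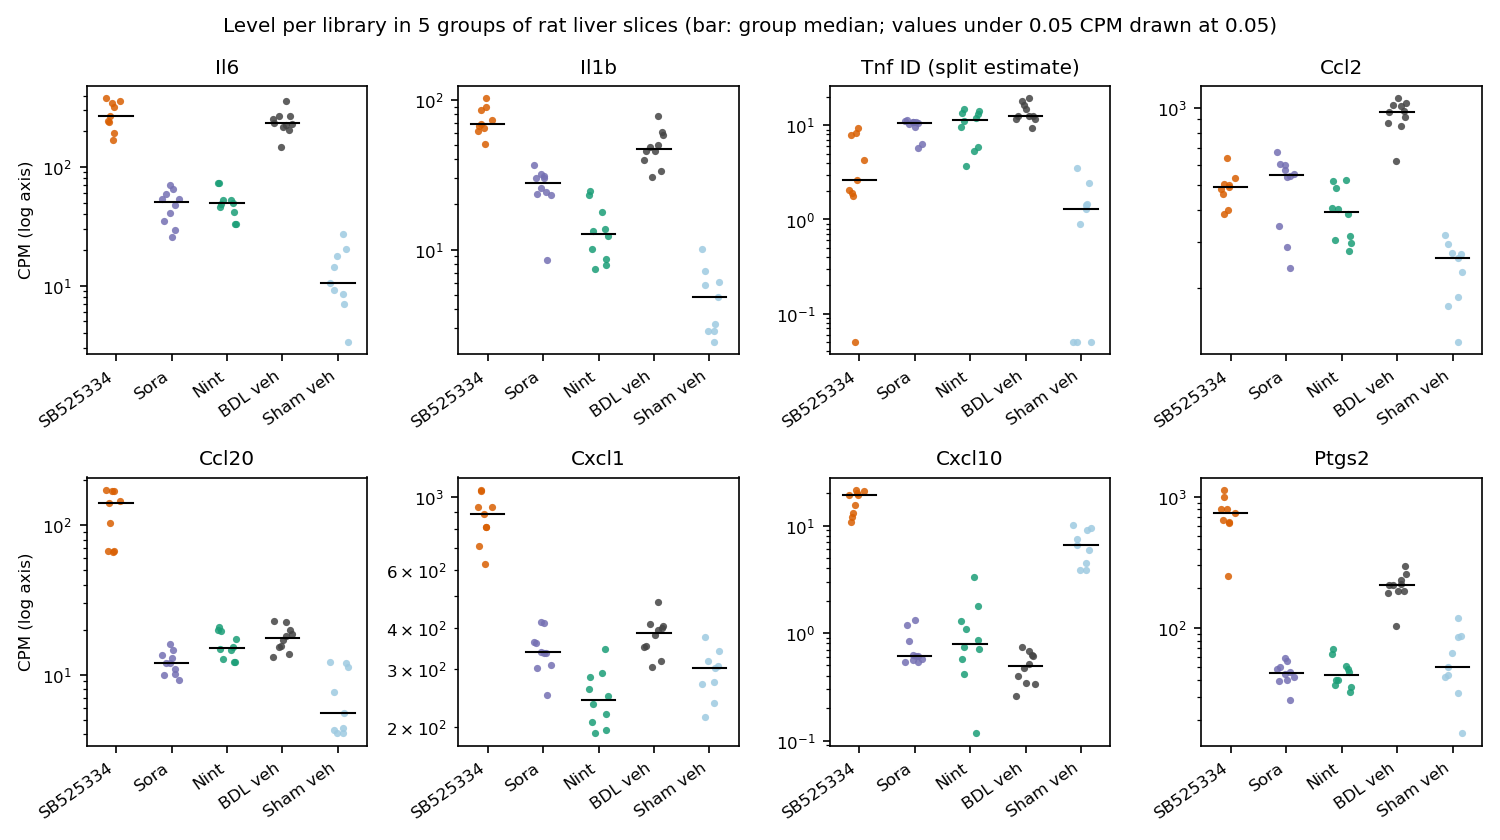
Level of each gene in every library, in CPM on a log axis, for the groups SB525334, Sora, Nint, ligated vehicle and sham vehicle; points are libraries and bars are group medians, and values under 0.05 CPM are drawn at 0.05. The Cxcl10 points of SB525334 lie between 10.7 and 21.6 CPM and those of ligated vehicle between 0.259 and 0.746 CPM, while the Il6 points of Sora and Nint lie below all those of ligated vehicle.

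Ligated liver against sham liver, both with vehicle, was the comparison for the disease model. Of the 8 genes, 7 were higher in ligated slices and Cxcl10 was lower, with the largest gains in the cytokines Il6, Il1b and Tnf. Most genes differ here: 82.2% of all genes tested were called, 40.0% higher and 42.2% lower, so a call alone does not set these genes apart. The groups did not overlap for 6 of the 8, against 52.6% of all genes; 5 of them were higher in every ligated library, against 27.5% of all genes, and 1 was lower, against 25.2%. The median log2 fold change of the 8 was 1.89, and that of all genes was -0.045.

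Il6 (ENSRNOG00000010278), which drives the acute-phase response of hepatocytes, averaged 242 ± 55.3 CPM in ligated slices (SD, n = 10; lowest 146, median 234, highest 363) and 13.1 ± 7.55 CPM in sham slices (SD, n = 9; lowest 3.35, median 10.5, highest 27.4). Every ligated library was above every sham library. The log2 fold change was 4.19 ± 0.26 (SE), or 18.3-fold, with an adjusted p of 1.85e-19 in edgeR. Il1b (ENSRNOG00000004649), which encodes interleukin 1 beta, averaged 49.0 ± 14.1 CPM in ligated slices and 5.03 ± 2.53 CPM in sham slices. On the log2 scale that is 3.27 ± 0.26 (SE; edgeR adjusted p = 5.63e-16), again with no overlap between the groups.

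Tnf (ENSRNOG00000055156), which encodes tumour necrosis factor, needs a caution about its counts. Its estimates were not whole in 41 of the 48 libraries, and in 48 of 48 they added up to a whole number (within 0.002) with those of 1 further Ensembl ID, ENSRNOG00000000837. The IDs thus share reads that the estimate divides between them, and the sum of both is given beside the Tnf value. On the Tnf ID alone, ligated slices had 13.9 ± 3.20 CPM and sham slices 1.23 ± 1.20 CPM; the sum was 26.4 ± 3.76 CPM (lowest 21.9, median 26.1, highest 35.2) and 2.30 ± 1.17 CPM (lowest 0.890, median 1.85, highest 4.22; SD). The log2 fold change was 3.52 ± 0.46 on the ID and 3.51 ± 0.22 on the sum (SE), with edgeR adjusted p of 1.84e-09 and 2.23e-19. With a quality term in the fit the value on the ID was 1.99 (adjusted p = 0.0165) and that on the sum 2.97 (adjusted p = 1.39e-09).

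**Figure D2:**
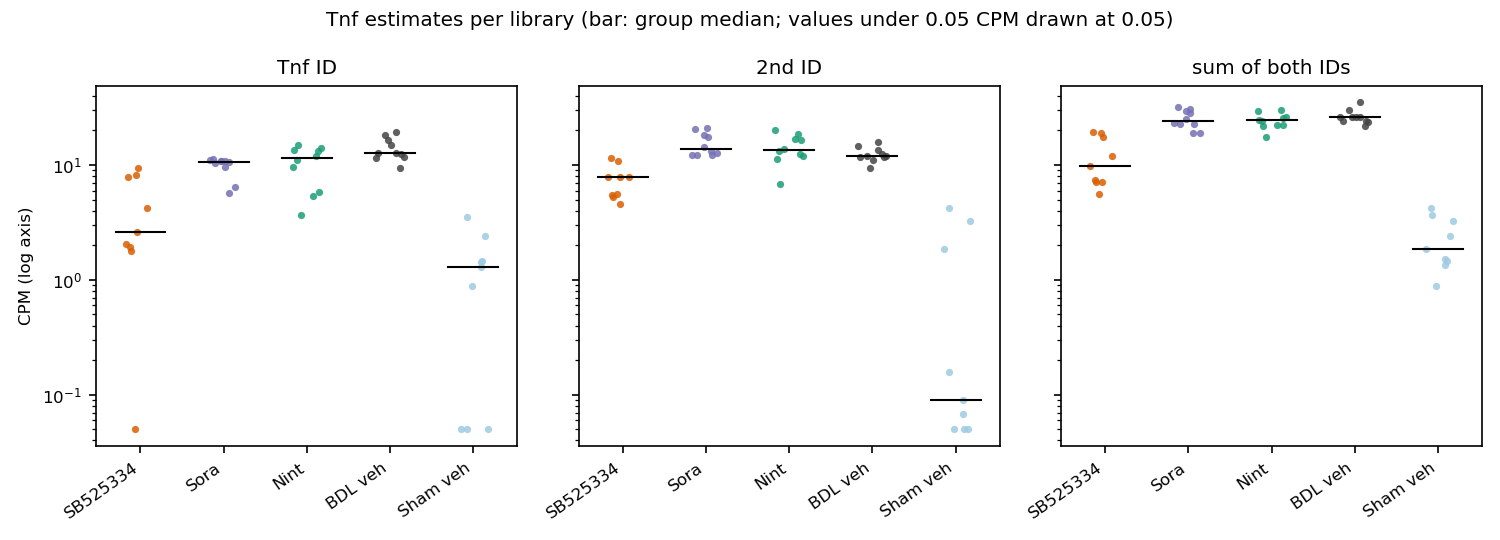
CPM of the Tnf ID, of the further ID that shares its reads, and of their sum, by group in the order SB525334, Sora, Nint, ligated vehicle and sham vehicle; points are libraries and bars are group medians, and values under 0.05 CPM are drawn at 0.05. The sum spans 5.57 to 19.4 CPM with SB525334 and 21.9 to 35.2 CPM with ligated vehicle, while on the Tnf ID alone 1 SB525334 library and 3 sham libraries lie at the bottom of the axis.

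Among the chemokines, Ccl2 (ENSRNOG00000007159), which draws in monocytes, averaged 934 ± 133 CPM in ligated slices (lowest 620, median 964, highest 1088) and 236 ± 64.6 CPM in sham slices (lowest 123, median 260, highest 319; SD). The log2 fold change was 1.98 ± 0.17 (SE; edgeR adjusted p = 4.06e-15). Ccl20 (ENSRNOG00000015992), a ligand of the lymphocyte and dendritic cell receptor CCR6, averaged 17.7 ± 3.37 CPM in ligated slices and 7.26 ± 3.59 CPM in sham slices, a log2 change of 1.28 ± 0.21 (SE; edgeR adjusted p = 4.25e-07). Neither gene's groups overlapped.

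Cxcl1 (ENSRNOG00000002802), a neutrophil chemokine, had the smallest difference of the 8. It averaged 379 ± 51.0 CPM in ligated slices and 293 ± 50.7 CPM in sham slices, and 6 of 10 ligated libraries were above the highest sham library. The log2 fold change was 0.37 ± 0.11 (SE; edgeR adjusted p = 0.00161).

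Cxcl10 (ENSRNOG00000022256), an interferon-inducible chemokine for T cells, went the other way. It averaged 0.499 ± 0.163 CPM in ligated slices (lowest 0.259, median 0.497, highest 0.746) and 6.76 ± 2.44 CPM in sham slices (lowest 3.84, median 6.54, highest 10.1; SD). All ligated libraries were below all sham libraries, and the log2 fold change was -3.77 ± 0.30 (SE; edgeR adjusted p = 7.59e-16), or 13.6-fold lower. The ligated values rest on 5 to 11 counts per library and the sham values on 43 to 152, so the size of the fold is less certain than its direction.

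Ptgs2 (ENSRNOG00000002525), the inducible cyclooxygenase, averaged 209 ± 50.3 CPM in ligated slices (lowest 103, median 212, highest 297) and 60.1 ± 32.3 CPM in sham slices (lowest 15.7, median 50.7, highest 119; SD). Of the 10 ligated libraries, 9 were above the highest sham library, and the log2 fold change was 1.80 ± 0.24 (SE; edgeR adjusted p = 3.4e-09).

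**Figure D3:**
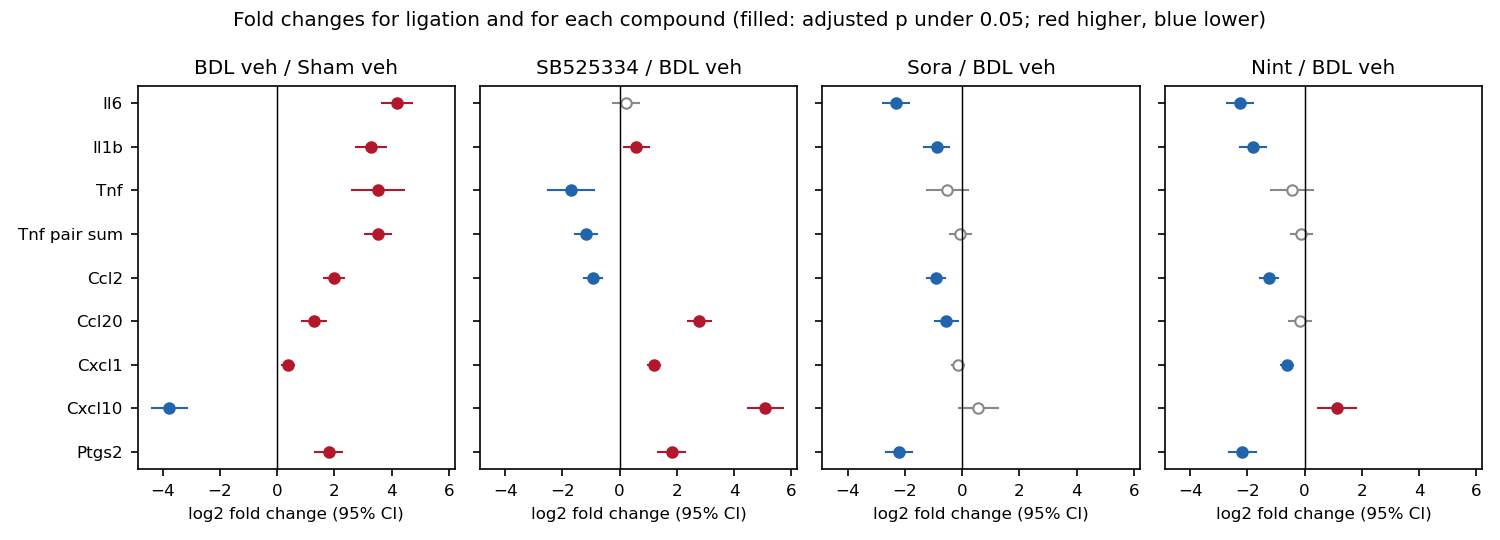
Log2 fold change of each gene, with 95% confidence intervals from edgeR's quasi-likelihood fit, for ligated vehicle against sham vehicle and for each compound against ligated vehicle, on a shared axis; filled points passed the adjusted threshold. Cxcl10 stands at -3.77 for ligated vehicle against sham and at 5.09 for SB525334 against vehicle, and Il6 and Ptgs2 stand below -2 for both Sora and Nint.

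SB525334 against vehicle in ligated slices gave a mixed response. Cxcl10, Ccl20, Ptgs2, Cxcl1 and Il1b rose, Ccl2 and Tnf fell, and Il6 was not called. Of all genes, 73.0% were called in this comparison, 38.2% higher and 34.8% lower, against 7 of the 8. The groups did not overlap for 3 of the 8, all higher, where 34.5% of all genes did not overlap, 18.5% higher and 16.0% lower. The median log2 fold change of the 8 was 0.89, and that of all genes was 0.036.

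Cxcl10 averaged 16.9 ± 4.11 CPM with SB525334 (lowest 10.7, median 19.2, highest 21.6) and 0.499 ± 0.163 CPM with vehicle (SD). The 9 SB525334 libraries held 126 to 284 counts of it and the vehicle libraries 5 to 11, so the size of the fold is less certain than its direction. Its log2 fold change of 5.09 ± 0.31 (SE; 95% interval 4.47 to 5.70; edgeR adjusted p = 1.07e-19), or 34.0-fold, was the largest of the 8, and the same gene was the one lower in ligated than in sham slices. With the quality term the log2 fold change was 4.29 (edgeR adjusted p = 5.05e-10).

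Ccl20 averaged 122 ± 46.6 CPM with SB525334 and 17.7 ± 3.37 CPM with vehicle, a log2 change of 2.78 ± 0.20 (SE; edgeR adjusted p = 1.11e-16). The SB525334 libraries numbered 1 to 9 had 66.8, 146, 173, 168, 141, 66.8, 103, 65.7 and 168 CPM of Ccl20. Libraries 1, 6 and 8, those with the smallest share of reads not mapped uniquely, were the lowest, yet each stood above the highest vehicle library at 22.8 CPM. Cxcl1 averaged 865 ± 142 CPM with SB525334 (lowest 624, median 887, highest 1050.4) and 379 ± 51.0 CPM with vehicle (lowest 304, median 387, highest 478; SD). All SB525334 libraries were higher, at a log2 change of 1.19 ± 0.11 (SE; edgeR adjusted p = 8.76e-14), or 0.77 when scaled by total counts.

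Ptgs2 averaged 739 ± 247 CPM with SB525334 (lowest 248, median 751, highest 1127) and 209 ± 50.3 CPM with vehicle (SD), and 8 of 9 SB525334 libraries were above the highest vehicle library. The log2 fold change was 1.82 ± 0.23 (SE; edgeR adjusted p = 2.14e-09). Il1b rose less, to 73.6 ± 16.0 CPM with SB525334, against 49.0 ± 14.1 CPM with vehicle (SD), at a log2 change of 0.59 ± 0.22 (SE; edgeR adjusted p = 0.0154). Its call was lost under total-count scaling (log2 fold change 0.18, adjusted p = 0.474), with the well column as a factor (0.49, adjusted p = 0.0838) and with the quality term (0.70, adjusted p = 0.13).

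Il6 averaged 281 ± 75.3 CPM with SB525334 (lowest 170, median 270, highest 381) and 242 ± 55.3 CPM with vehicle (SD). The groups overlapped, and the log2 fold change of 0.22 had a 95% interval of -0.22 to 0.66 (edgeR adjusted p = 0.375), which leaves no direction: it was -0.21 under total-count scaling.

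Ccl2 was lower, at 489 ± 73.4 CPM with SB525334 (lowest 388, median 490, highest 638) and 934 ± 133 CPM with vehicle (SD). Of the 9 SB525334 libraries, 8 were below the lowest vehicle library, and the log2 fold change was -0.93 ± 0.16 (SE; edgeR adjusted p = 1.45e-06). Tnf averaged 4.24 ± 3.41 CPM on its ID and 11.7 ± 5.58 CPM on the sum with SB525334, against 13.9 ± 3.20 and 26.4 ± 3.76 CPM with vehicle (SD). It fell by 1.69 on the log2 scale on its ID (edgeR adjusted p = 0.000211) and by 1.17 on the sum (adjusted p = 5.63e-07), where every SB525334 library was below every vehicle library. SB525334 libraries 1, 6 and 8 had the highest sums, at 17.4, 19.4 and 19.1 CPM, where the other 6 spanned 5.57 to 12.1 CPM. Without these 3 libraries the log2 fold change was -2.71 on the ID and -1.68 on the sum. They were the highest of the group on both, so leaving them out had to deepen the fall and is no check on it. With all 9 libraries and the quality term the log2 fold change was -0.33 on the ID (edgeR adjusted p = 0.707) and -0.69 on the sum (adjusted p = 0.0697). The call for Tnf was not held in that fit, which cannot tell quality from compound.

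Sora and Nint were compared with the same 10 vehicle libraries as SB525334, so the 3 comparisons share their controls. With Sora, Il6, Ptgs2, Ccl2, Il1b and Ccl20 fell, and Tnf, Cxcl1 and Cxcl10 were not called. Of all genes, 29.3% were called with Sora, 16.3% higher and 13.0% lower, where 5 of the 8 were lower. The groups did not overlap for Il6 and Ptgs2, both lower, where 7.70% of all genes did not overlap, 3.07% higher and 4.64% lower. The median log2 fold change was -0.72 over the 8 and 0.022 over all genes.

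With Nint, the 5 genes that fell were Il6, Ptgs2, Il1b, Ccl2 and Cxcl1, and Tnf and Ccl20 were not called. Cxcl10 was called higher at few counts, a call that several other fits given below did not keep. It passed the filter on low counts in the fit of all groups, but not when only Nint and vehicle entered. Of all genes, 24.3% were called with Nint, 10.9% lower and 13.3% higher. The groups did not overlap for 4 of the 8, all lower, where 7.71% of all genes did not overlap, 3.36% higher and 4.35% lower. The median log2 fold change was -0.93 over the 8 and 0.015 over all genes.

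Il6 averaged 48.3 ± 15.0 CPM with Sora (lowest 25.8, median 50.7, highest 71.1), 50.4 ± 13.9 CPM with Nint (lowest 32.8, median 49.3, highest 73.3) and 242 ± 55.3 CPM with vehicle (lowest 146; SD, n = 10 each). All 20 compound libraries were below all vehicle libraries. The log2 fold changes were -2.32 ± 0.23 with Sora and -2.26 ± 0.23 with Nint (SE), with edgeR adjusted p of 4.64e-11 and 1.01e-10. Ptgs2 averaged 45.3 ± 8.83 CPM with Sora (highest 58.9), 46.4 ± 12.1 CPM with Nint (highest 69.4) and 209 ± 50.3 CPM with vehicle (lowest 103; SD). Again no compound library reached the vehicle range, at log2 fold changes of -2.20 ± 0.23 and -2.17 ± 0.23 (SE; edgeR adjusted p = 4.26e-10 and 6.36e-10).

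Ccl2 averaged 495 ± 148 CPM with Sora, 392 ± 92.4 CPM with Nint and 934 ± 133 CPM with vehicle (SD), log2 fold changes of -0.92 ± 0.16 and -1.25 ± 0.16 (SE; edgeR adjusted p = 9.32e-06 and 2.12e-08). Of the Sora libraries 9 of 10, and of the Nint libraries 10 of 10, were below the lowest vehicle library. Il1b averaged 26.4 ± 7.66 CPM with Sora, 13.9 ± 6.10 CPM with Nint and 49.0 ± 14.1 CPM with vehicle (SD). Its log2 fold change was -0.89 ± 0.22 with Sora (edgeR adjusted p = 0.00137) and -1.82 ± 0.23 with Nint (adjusted p = 1.93e-08), and only with Nint did the ranges not overlap.

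Cxcl1 averaged 342 ± 50.1 CPM with Sora, 248 ± 49.1 CPM with Nint and 379 ± 51.0 CPM with vehicle (SD). Nint lowered it, at a log2 change of -0.61 ± 0.10 (SE; edgeR adjusted p = 9.47e-06), with 9 of 10 libraries below the vehicle range; for Sora the value was -0.15 (adjusted p = 0.311). Ccl20 averaged 12.1 ± 2.15 CPM with Sora, 16.0 ± 3.32 CPM with Nint and 17.7 ± 3.37 CPM with vehicle (SD). The Sora value of -0.55 ± 0.20 (SE; edgeR adjusted p = 0.0293) lost its call without any 1 of Sora libraries 5 and 10 and vehicle libraries 2 and 6, with the log2 fold change at -0.52 to -0.50 (adjusted p up to 0.0592). The Nint value was -0.15 (adjusted p = 0.642).

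Tnf on its ID was 9.76 ± 2.0 CPM with Sora, 10.3 ± 4.03 CPM with Nint and 13.9 ± 3.20 CPM with vehicle (SD), log2 fold changes of -0.51 and -0.43 (edgeR adjusted p = 0.31 and 0.434). The Sora value on the ID was called when only Sora and vehicle entered the fit (-0.53, adjusted p = 0.00386) and in voom with sample weights (-0.50, adjusted p = 0.0329). On the sum it was 25.2 ± 4.62 CPM with Sora, 24.5 ± 3.83 CPM with Nint and 26.4 ± 3.76 CPM with vehicle (SD), with log2 fold changes of -0.06 (95% interval -0.42 to 0.29; edgeR adjusted p = 0.833) and -0.11 (adjusted p = 0.732). Cxcl10 stayed within 2 to 53 counts per library with either compound. It averaged 0.742 ± 0.286 CPM with Sora, 1.09 ± 0.909 CPM with Nint and 0.499 ± 0.163 CPM with vehicle (SD), and the Nint log2 fold change was 1.14 ± 0.33 (SE; edgeR adjusted p = 0.00704). Without Nint library 5, the highest at 3.31 CPM, it was 0.76 (adjusted p = 0.0575). The call was also lost in voom (0.72, adjusted p = 0.0927), on the authors' log2 CPM (0.74, adjusted p = 0.0846) and with the well column (0.72, adjusted p = 0.128).

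**Figure D4:**
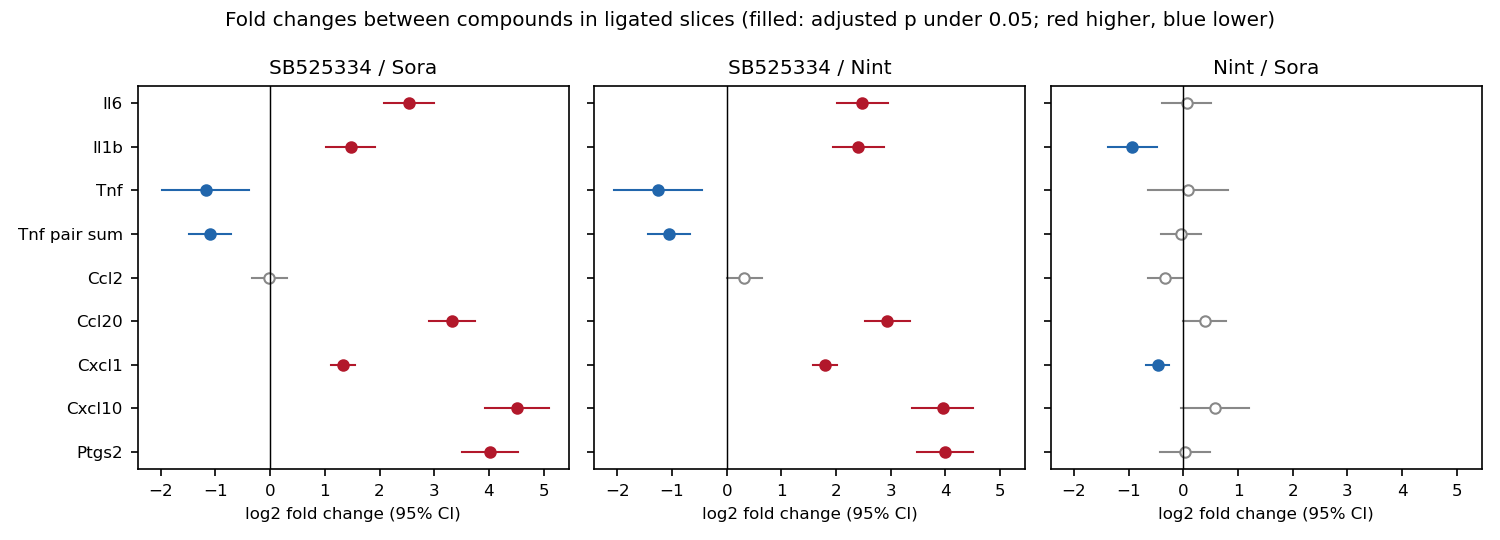
Log2 fold change of each gene, with 95% confidence intervals from edgeR's quasi-likelihood fit, for SB525334 against Sora, SB525334 against Nint and Nint against Sora, on a shared axis; filled points passed the adjusted threshold. Ptgs2 stands at 4.02 and 3.99 for SB525334 against Sora and Nint and at 0.03 for Nint against Sora, and Il1b and Cxcl1 lie below 0 for Nint against Sora.

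The 3 compounds were also set against each other directly, in 3 pairs, each adjusted over all genes. Doses and times are not given, so these are differences between the groups as cultured, not between compounds at matched exposure. SB525334 gave higher levels than Sora and than Nint for Il6, Il1b, Ccl20, Cxcl1, Cxcl10 and Ptgs2, with no overlap for any of these 6 genes in either pair, and lower Tnf. Of all genes, 72.4% were called for SB525334 against Sora, 36.1% higher and 36.3% lower, and 72.7% for SB525334 against Nint, 36.4% higher and 36.3% lower. For SB525334 against Sora 31.3% of all genes did not overlap, 17.2% higher and 14.1% lower, and for SB525334 against Nint 32.4%, 17.8% higher and 14.6% lower. The median log2 fold change of the 8 was 2.01 against Sora and 2.44 against Nint.

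Ptgs2 differed by a log2 fold change of 4.02 for SB525334 against Sora and 3.99 for SB525334 against Nint (edgeR adjusted p = 1.8e-18 and 1.95e-18), and Il6 by 2.54 and 2.48 (adjusted p = 2.2e-13 and 4.22e-13). Ccl20 differed by 3.33 and 2.93, and Cxcl10 by 4.52 and 3.95. Tnf on the sum was lower, at -1.10 and -1.06 (adjusted p = 1.71e-06 and 3.57e-06), and on the Tnf ID at -1.18 and -1.26 (adjusted p = 0.00757 and 0.00453). With the quality term the Tnf ID stood at -0.068 against Sora and -0.0063 against Nint (adjusted p = 0.934 and 0.995), so both calls were lost, and the sum at -0.72 and -0.64 (adjusted p = 0.0275 and 0.0722), where the call against Nint was lost. Ccl2 fell against vehicle with each of the 3 compounds. For SB525334 against Sora it differed by -0.02 (95% interval -0.34 to 0.30, edgeR adjusted p = 0.925). Under total-count scaling that value was -0.38 (adjusted p = 0.0319), where the median of all genes was -0.372. For SB525334 against Nint Ccl2 differed by 0.32 (edgeR adjusted p = 0.0676). That difference was called when only those groups entered the fit (0.30, adjusted p = 0.035) and in voom (0.33, adjusted p = 0.0483). With 1 library left out its edgeR adjusted p ran from 0.0363 to 0.143, and under total-count scaling it was -0.075.

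Nint against Sora differed in 2 genes in the edgeR fit of all groups. Il1b was lower with Nint, at a log2 change of -0.93 ± 0.22 (SE; edgeR adjusted p = 0.0169), and so was Cxcl1, at -0.47 ± 0.10 (SE; adjusted p = 0.00862), with overlapping ranges in both. The background was low here, with 2.32% of all genes called, 1.37% higher and 0.948% lower, and with 0.393% not overlapping, 0.305% higher and 0.0880% lower. Ccl2 (-0.34, edgeR adjusted p = 0.27) was called lower with Nint in voom with sample weights (-0.45, adjusted p = 0.00455). Ccl20 (0.40, edgeR adjusted p = 0.315) was called higher when only Nint and Sora entered the fit (0.40, adjusted p = 0.0318). Those fits called 3695 and 1605 of all genes, where the edgeR fit of all groups called 343. For Il6 the difference was 0.06 (95% interval -0.38 to 0.50; adjusted p = 0.937) and for Ptgs2 0.03 (95% interval -0.42 to 0.49; adjusted p = 0.969), intervals that still allow differences of up to 0.50 in either gene.

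Against sham slices, the treated ligated slices showed which levels remained apart from liver without ligation. All 8 genes were higher with SB525334 than in sham, 7 of them without overlap, where 81.2% of all genes were called, 42.9% higher and 38.4% lower, and 41.5% did not overlap, 23.6% higher and 17.9% lower. Cxcl10 with SB525334, at 16.9 CPM, was above sham at 6.76 CPM by a log2 change of 1.32 ± 0.25 (SE; edgeR adjusted p = 6.52e-06). Tnf on its ID (1.83, edgeR adjusted p = 0.000516) was not called without SB525334 libraries 1, 6 and 8 (0.82, adjusted p = 0.132). The sum gave 2.34 with all SB525334 libraries (adjusted p = 4.01e-13) and 1.83 without those libraries (adjusted p = 4.93e-11). Those libraries were the highest with SB525334 on the ID and on the sum, so leaving them out had to lower both values.

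Sora and Nint slices remained above sham for Il6, Il1b, Tnf, Ccl2 and Ccl20, where 80.4% of all genes were called with Sora, 40.1% higher and 40.3% lower, and 80.9% with Nint, 40.0% higher and 40.9% lower. The groups did not overlap for 2 of the 8 with Sora, where 48.6% of all genes did not (26.3% higher and 22.3% lower), and for 3 of the 8 with Nint, where 50.3% did not (26.8% higher and 23.5% lower). Il6 was higher by a log2 fold change of 1.87 with Sora and 1.93 with Nint (edgeR adjusted p = 1.75e-09 and 8.11e-10), and Tnf on the sum by 3.45 and 3.40. Cxcl10 was lower in both, by log2 fold changes of -3.20 and -2.63 (adjusted p = 3.43e-14 and 4.85e-12), with no overlap. Ptgs2 was not called against sham, at -0.41 with Sora (95% interval -0.87 to 0.06; adjusted p = 0.104) and -0.37 with Nint (95% interval -0.84 to 0.09; adjusted p = 0.135). Without sham library 2, the lowest for Ptgs2 at 15.7 CPM, it was called lower with Sora (-0.53, adjusted p = 0.0202) and with Nint (-0.50, adjusted p = 0.0287). Cxcl1 stood at a log2 fold change of 0.22 with Sora (adjusted p = 0.0515, not called) and -0.24 with Nint (adjusted p = 0.0351). With Sora it was called higher in 9 of 11 other fits. The Nint call was lost in 8 of 11, at -0.094 with the quality term (adjusted p = 0.666) and turned to 0.07 by total-count scaling.

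**Figure D5:**
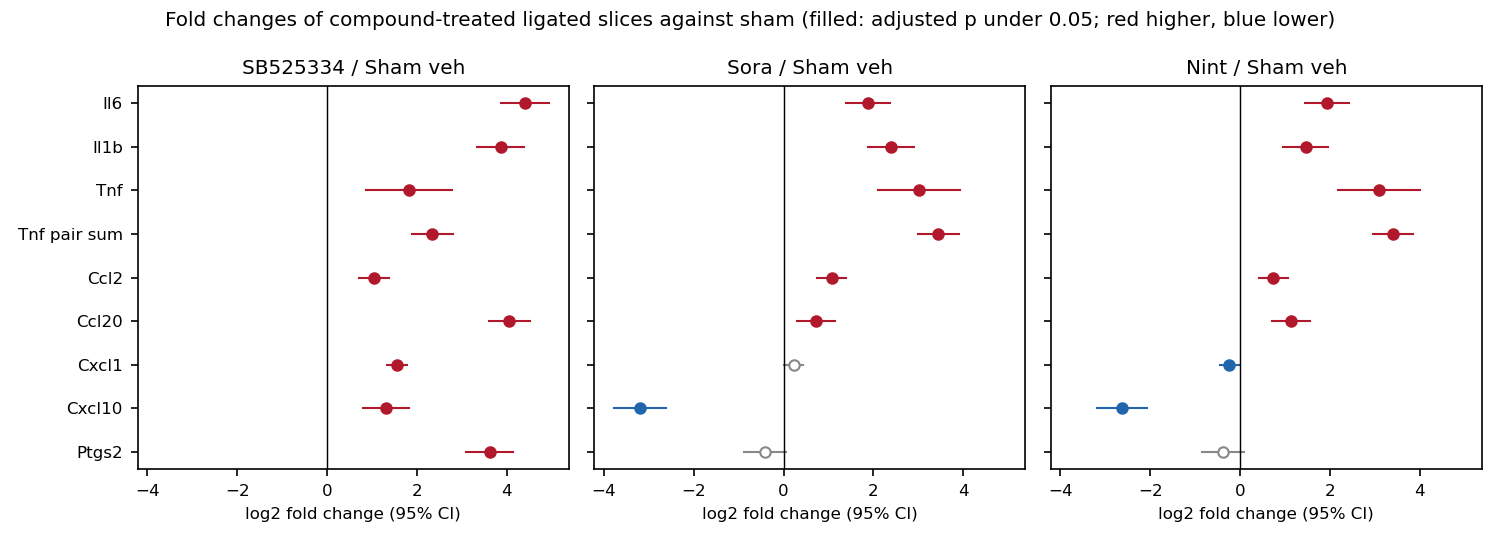
Log2 fold change of each gene, with 95% confidence intervals from edgeR's quasi-likelihood fit, for SB525334, Sora and Nint each against sham vehicle, on a shared axis; filled points passed the adjusted threshold. All 8 genes lie above 0 with SB525334, while Cxcl10 lies at -3.20 with Sora and -2.63 with Nint and Ptgs2 has intervals that include 0.

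In order of level, the groups ran as follows. For Il6, SB525334 and ligated vehicle were highest with no called difference, Nint and Sora came next with none between them, and sham was lowest. Il1b was highest with SB525334, then ligated vehicle, Sora, Nint and sham, with each step called. The Il1b call between SB525334 and ligated vehicle was lost in some other fits. Ptgs2 was highest with SB525334, then ligated vehicle, and sham, Nint and Sora were not told apart. Cxcl10 was highest with SB525334, then sham, and Nint, Sora and ligated vehicle were lowest. Ccl2 was highest with ligated vehicle and lowest in sham. Sora, SB525334 and Nint lay between, with no called difference in the edgeR fit of all groups. Some other fits called Nint lower than Sora or lower than SB525334. Cxcl1 was highest with SB525334. Ligated vehicle and Sora were not told apart, ligated vehicle was above sham, and Sora was called above sham only in other fits. Nint was lowest for Cxcl1, but its call against sham was lost in most other fits. Ccl20 was highest with SB525334 and lowest in sham. For Tnf on the sum, ligated vehicle, Sora and Nint were not told apart, SB525334 was lower than each, and sham was lowest.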

How the data were processed

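Expected counts per gene, estimated with RSEM and not normalised, were deposited by the authors for 32883 genes in 48 libraries; RSEM and edgeR (no versions) and build Rnor_6.0 are named in the submitters' processing notes. Which aligner, annotation release or filter was used is not given in the sources used for this text. The deposited metrics put 98.4% to 99.0% of read 1 on the antisense strand, so the libraries are stranded; the strand setting of the counting is not given. A table of log2 CPM, deposited by the authors, served as an alternative, and a deposited table of 172 quality metrics (percent values, counts and other scores) gave the quality term.

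Counts were rounded to whole numbers, filtered with filterByExpr by group (14775 genes left), scaled with TMM and fitted with 1 coefficient per group in edgeR 4.0.16 (robust quasi-likelihood, R 4.3.3), for 10 comparisons. The test was also run on simulated counts, drawn for all groups from the ligated vehicle means with a small set of genes changed. Such counts lack the broad differences between groups seen here, so that run does not vouch for the test on these data. Standard errors come from the F statistic. Total counts of 12249470 to 29596987 put 3 counts, the limit that a count of 0 allows, at 0.101 to 0.245 CPM without TMM factors. On the TMM scale the limit is higher in SB525334 and sham libraries, whose factors were at most 0.899 and 0.907. Such limits cover counting error only. No pair of libraries within a group matched within sampling noise (207 pairs, lowest chi-square per degree of freedom 3.94 over genes with at least 20 counts).

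The members and lists were chosen with earlier results of these data known, and all members with counts are named. The reference table holds 0 Ensembl IDs, so 7 lists of pathway and cell type genes, and the rule naming the genes most alike in pattern, could not be applied. Alternatives were other scalings and filters, DESeq2 1.42.0, limma 3.58.1 (voom, and the authors' log2 CPM), the well column, the quality term, a replicate block, each library left out, and sets of libraries that earlier results set apart left out (SB525334 libraries 1, 6 and 8; vehicle libraries 3 and 6). The sum of the Tnf ID with the ID sharing its reads was added after seeing the data.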

Additional observations from a re-analysis of the deposited data

Results flagged for a closer look

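The 8 genes and the Tnf sum, in 5 groups of 9 or 10 libraries each, make 45 sets. In 3 of them, 1 library lay far from the others by Dixon's test, where chance gives about 1 in 20. With Sora, Il1b was 8.483 CPM in library 3, below the 23.1 CPM of the next lowest library. Cxcl10 with Nint was 3.306 CPM in library 5, above the 1.79 CPM of the next highest. In ligated vehicle, Ccl2 was 619.7 CPM in library 3, below the 848 CPM of the next lowest library.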

How the results depend on the processing

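Over the 8 genes and 10 comparisons, 923 of 976 values from other settings kept both direction and side of the threshold, 20 lost the call, 16 gained it and 17 turned direction; leaving out 1 library gave 1496 of 1536 kept, 13 lost, 13 gained and 14 turned. The number of genes called stayed within 1.5 times in each comparison under every setting run, except with a log2 fold change of at least 1 required: 2 for Sora against vehicle, and 0 for Nint against Sora in edgeR, where 2 pass the adjusted threshold without it. Nearly all turned values were near 0 and not called; the cause was not tested. They are, under total-count scaling, -0.21 for Il6 with SB525334 against vehicle, -0.075 for Ccl2 with SB525334 against Nint, and 0.073 for Cxcl1 with Nint against sham. The last was called at -0.24 in the edgeR fit of all groups with TMM factors, a call lost in most other fits. With the quality term Il6 with SB525334 against vehicle was -0.013 and the Tnf sum with Sora against vehicle 0.030. For SB525334 against Sora, Ccl2 was 0.027 on the authors' log2 CPM, 0.067 with the well column and 0.033 without SB525334 libraries 1, 6 and 8. For Nint against Sora, Il6 was -0.039 and Ptgs2 -0.044 in voom; Tnf was -0.016 on the authors' log2 CPM, -0.019 with the replicate block, -0.029 with the well column and -0.061 with the quality term, and its sum -0.043, or -0.016 under total counts and -0.085 with the quality term. With 1 library left out, Ccl2 for SB525334 against Sora ran from -0.098 to 0.040, and for Nint against Sora Il6 ran from -0.018 to 0.14 and Ptgs2 from -0.050 to 0.081.

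The correlation of deviations of same-numbered libraries passed 0.1 in some pairs of most comparisons but in every pair of none: 4 of 10 pairs for Sora against vehicle (highest 0.55), 5 of 10 for Nint against vehicle (highest 0.43) and 0 of 9 for SB525334 against sham. Replicate numbers follow the well order in 5 of 5 groups, and the libraries were taken to share only a number. With the replicate block, 8 genes were called for ligated vehicle against sham and 7, 5 and 6 for SB525334, Sora and Nint against vehicle; against sham Nint gave 6 and Sora 7. Depth limits Cxcl10 most: it did not pass the filter when only Sora or Nint and vehicle entered the fit, so that setting gave no value for it there.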

Other observations

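Within a group, some libraries were low or high for several of the 8 genes at once. With SB525334, library 8 was the lowest of 9 for Il6, Il1b, Ccl20, Cxcl1 and Ptgs2 and the highest for Cxcl10. In ligated vehicle, library 3 was the lowest of 10 for Il6, Il1b, Ccl2, Cxcl1 and Ptgs2, and library 6 the highest for Il6, Il1b, Tnf and Cxcl1. Sham library 3 was the highest of 9 for Il6 and Ptgs2. In sham slices the coefficient of variation ran from 17.3% for Cxcl1 to 97.8% for the Tnf ID, with Il6 at 57.5%, Ptgs2 at 53.8%, Il1b at 50.4% and Ccl20 at 49.5%. No test was run on these orders.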
